A study of Mus musculus with 30 samples.

Results

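The genes described here are 8 members of the cadherin and catenin system of the adherens junction: the cadherins Cdh1, Cdh2, Cdh3, Cdh11 and Cdh13 and the catenins Ctnna1, Ctnnb1 and Ctnnd1. They were chosen by name out of 36047 annotated genes, with earlier results of these data known. For each gene the estimated read counts of its transcripts were added up in every library. The level is given as CPM, the counts of a gene scaled to a common library total, when a gene is compared with itself. Genes are compared with each other as TPM, which allows for transcript length as well as depth. Of the 8 genes, 5 passed the filter on low counts in all experiments, namely Cdh2, Cdh11, Ctnna1, Ctnnb1 and Ctnnd1. Cdh3 could be tested in 2 of the 4 experiments, and Cdh1 and Cdh13 in 1.

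Classical cadherins are transmembrane proteins that hold neighbouring cells together by binding, in the presence of calcium, to cadherins on the next cell. Their cytoplasmic tails bind beta-catenin (Ctnnb1), which binds alpha-catenin (Ctnna1) and through it the actin cytoskeleton, while p120-catenin (Ctnnd1) binds nearer the membrane and slows the removal of cadherins from the surface. Beta-catenin outside junctions is also the transcriptional coactivator of canonical Wnt signalling. E-cadherin (Cdh1) and P-cadherin (Cdh3) are typical of epithelia, whereas N-cadherin (Cdh2) and cadherin-11 (Cdh11, also called OB-cadherin) are typical of mesenchymal cells such as fibroblasts. T-cadherin (Cdh13) lacks the cytoplasmic tail and is held in the membrane by a lipid anchor. Snai1, one of the delivered factors, is a textbook repressor of Cdh1.

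RNA came from NIH3T3-CG cells. NIH3T3 is a line of mouse embryonic fibroblasts, and the meaning of the suffix is not given in the labels. The 30 libraries form 10 groups of 3 replicates in 4 experiments, and each experiment asks what follows a rise of 1 transcription factor. In the transduction experiment, cells carrying a transduced, doxycycline-inducible Prrx1 were grown with doxycycline or without it, so both groups carry the construct. No group got doxycycline without the construct, so effects of the drug and of induced Prrx1 cannot be told apart. In the transfection experiments, a plasmid carrying a factor was delivered, and controls got a control plasmid. Prrx1 and Snai1 were set against 1 shared control group, Egr1 and Jun against another, and Srebf2 against its own. Prrx1 is a homeobox factor of mesenchyme, Egr1 and Jun are immediate early factors, and Srebf2 activates sterol synthesis genes. The series title places the work in a study of how the Hedgehog response varies between cells. Nothing in the labels tells whether replicates came from separate cultures, so a p-value here refers to library-to-library spread, part or all of which may be technical.

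Library totals ran from 7996355 to 17129632 estimated counts in the transduction experiment and from 18020141 to 37068611 in the transfection experiments. Every delivered factor was higher where it was delivered, from 3.85-fold (Prrx1 with doxycycline) to 123-fold (Snai1). Of 10 fibroblast markers, 9 reached 1 CPM in both transduction groups and 10 in each transfection group, and their summed level was 15600 to 28000 CPM. Summed markers of other cells differed between the transduction and the transfection libraries. Summed endothelial markers were at 16.0 to 23.8 against 2.72 to 5.58 CPM, and skeletal muscle markers at 9.69 to 16.7 against 3.11 to 5.59 CPM. Immune markers were at 5.43 to 13.2 against 17.9 to 31.1 CPM, and neural markers at 4.91 to 7.28 against 11.8 CPM or more. In each transduction group 1 of 5 endothelial, 1 of 4 skeletal muscle and 2 of 5 neural markers reached 1 CPM. These sums thus rest on few genes and do not describe their lists as a whole. Among the transfection libraries, those of the Jun and Egr1 experiment stood apart. The second Jun and Egr1 control held 107 CPM of 5 neural markers against 11.8 and 14.2 CPM in the other controls, and the third Egr1 library held 188 CPM of 12 epithelial markers against 11 and 33.8 CPM in the others of its group. Values of Cdh1, Cdh3, Cdh11 and Cdh13 without the library concerned are given with their results below.

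Of the 5 cadherins, Cdh2 was the main one in all 30 libraries. Its level per length was 53.9 to 175 TPM, against 1.45 to 12.3 TPM for Cdh11 and at most 0.609 TPM for Cdh1, 0.751 TPM for Cdh3 and 1.70 TPM for Cdh13. Of the summed TPM of the 5 cadherins, Cdh2 took between 91.0% ± 0.954 (Srebf2 transfection, SD, n = 3) and 96.2% (Egr1 and Jun transfection, ± 0.252 and ± 0.924) as a group mean, and Cdh11 took most of the rest. Among the 5 cadherins, those typical of mesenchyme thus took most of the TPM, and Cdh1 and Cdh3, typical of epithelia, were below 1 TPM in every library. Of 14 other classical cadherins, 4 had a mean of at least 1 CPM, and these were not compared with Cdh2 in TPM. Among the catenins, Ctnna1 (206 to 424 TPM) and Ctnnb1 (216 to 352 TPM) were above Ctnnd1 (56.0 to 163 TPM). In each group the mean TPM of Ctnna1 and of Ctnnb1 exceeded that of Cdh2. In the transduction libraries this rests, for Ctnnb1, on transcript models other than the full-length coding Ctnnb1-201. That transcript was at most 57.6 TPM there, where Cdh2, summed over its transcripts, was at least 114 TPM. Of the protein-coding Cdh2 transcripts, Cdh2-201 was at 26.4 to 45.8 TPM and Cdh2-202 at 73.6 to 142 TPM in those libraries. Of the Ctnnd1 TPM in those libraries, 56.4 to 68.2% was on Ctnnd1-230, a model without coding sequence. These estimates are uncertain, as described below.

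**Figure D1:**
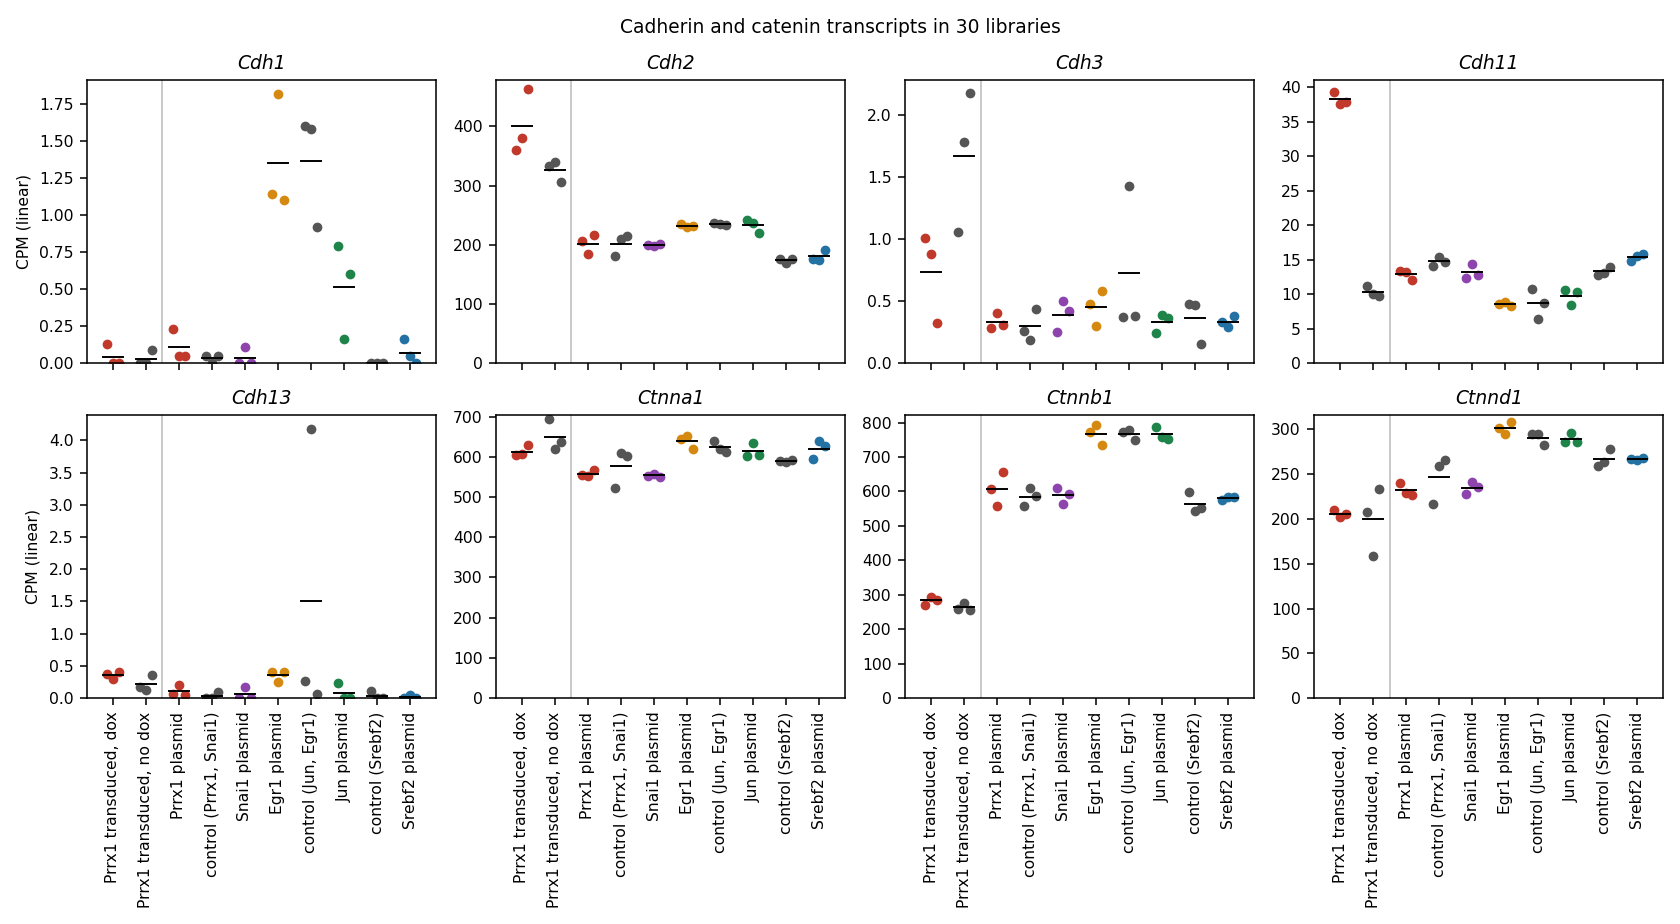
Level of each of the 8 genes (CPM, linear axis) in the 30 libraries: points are libraries, short bars are group means (n = 3), and the grey line separates the transduction experiment from the transfection experiments. Cdh11 stands at 37.6 to 39.4 CPM in the doxycycline libraries and at 15.8 CPM or less in the others, while Ctnnb1 is at 257 to 293 CPM in the transduction libraries and at 542 to 794 CPM in the transfection libraries.

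With doxycycline, the inducer of Prrx1, Cdh11 rose and no other of the 8 genes passed the test. Cdh11 (chromosome 8, 102632095 to 102785642, minus strand, GRCm38; ENSMUSG00000031673.6) stood at 39.4, 37.6 and 37.9 CPM with doxycycline and at 11.2, 9.95 and 9.73 CPM without it. The groups were far apart, and the spread within each was small. The rise was 3.64-fold (log2 fold change 1.87 ± 0.131 SE, adjusted p = 9.66e-06, edgeR quasi-likelihood test with Benjamini-Hochberg adjustment). Thus 1 of the 6 members tested was called, where 6.19% of all 13632 tested genes were called and 3.46% were called as higher. The median log2 fold change of the 6 members was 0.05, against -0.01 for all tested genes. Prrx1 itself went from 1010 ± 99.4 to 3930 ± 183 CPM (SD, n = 3) in the same libraries. In bulk RNA, more cells that express a gene and more RNA per cell cannot be told apart. The summed fibroblast markers were 18000 to 18200 CPM with doxycycline and 15600 to 18400 CPM without, ranges that overlap.

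N-cadherin, Cdh2 (chromosome 18, 16588877 to 16809246, minus strand), was at 360, 380 and 463 CPM with doxycycline and at 333, 339 and 307 CPM without it. All doxycycline libraries lay above all the others, but 1 of them stood well above the rest of its group. The difference was 1.21-fold (log2 fold change 0.28 ± 0.107) and did not pass the test (edgeR, adjusted p = 0.180). It passed in a fit without the filter on low counts (adjusted p = 0.0456) and in a fit of all 30 libraries (adjusted p = 0.0335). P-cadherin, Cdh3 (chromosome 8, 106510891 to 106557297, plus strand), was low, with 1.01, 0.88 and 0.32 CPM with doxycycline and 1.06, 1.78 and 2.18 CPM without. These groups did not overlap, yet each library held at most 24 reads of the gene, and the log2 fold change of -1.22 ± 0.593 had an adjusted p of 0.305. Groups did not overlap for 3 of the 6 members tested, Cdh2, Cdh3 and Cdh11, and for 25.2% of all tested genes. Counts of Cdh3 were 8, 9 and 4 with doxycycline and 18, 15 and 24 without, where the filter sets a minimum of 10. Cdh3 thus entered the test through the group where it was higher, and its separation is a description only.

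The catenins did not pass the test in the doxycycline comparison. Ctnna1 (chromosome 18, 35118859 to 35254779, plus strand) was at 613 ± 13.8 CPM with doxycycline and 650 ± 39.8 without (log2 fold change -0.11 ± 0.0855, adjusted p = 0.561). Ctnnb1 (chromosome 9, 120929216 to 120960507, plus strand) was at 283.5 ± 10.9 and 264 ± 11.3 CPM (0.08 ± 0.0743, adjusted p = 0.599). Ctnnd1 (chromosome 2, 84600071 to 84650765, minus strand) was at 206 ± 3.76 and 200 ± 37.9 CPM (0.02 ± 0.127, adjusted p = 0.964). The large spread of Ctnnd1 without doxycycline came from the second library, at 159 CPM against 208 and 234 CPM. In that library the authors' estimate put 560 counts on Gm28635, a read-through gene model that shares 58.5% of the 31-base words of Ctnnd1, against 4 counts in 1 doxycycline library and 0 in the other 28. With both models added together the library stood at 225.5 CPM, and the log2 fold change of Ctnnd1 became -0.13 ± 0.0716 (adjusted p = 0.379). Values of Ctnnd1 are therefore uncertain to the extent that reads were split between both models. Ctnnb1 shares 13.2% of its 31-base words with the overlapping gene Ulk4 and is uncertain in the same way.

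Among genes that work with the 8 members, the doxycycline libraries had called changes in 4 of 5 lists of junction and beta-catenin genes. Of 74 listed genes, 55 were tested, 6 were called higher and 3 lower, where 3.46% and 2.74% of all tested genes were. The lists were chosen with earlier results of these data known, so such shares are a description and not a test. The repressors of cadherin genes had 3 of 8 tested members higher and 0 lower. Snai2 rose 2.33-fold, from 51.1 ± 2.1 to 120 ± 8.83 CPM (adjusted p = 1.37e-05), Zeb1 1.32-fold (adjusted p = 0.0140) and Zeb2 1.27-fold (adjusted p = 0.0226). All 3 are known repressors of Cdh1, which was at 0 or 1 count in each of these 6 libraries. Of 19 junction partners tested, Lima1, which links alpha-catenin to actin, rose 1.55-fold (adjusted p = 0.000362), and Nectin1, a nectin of the adherens junction, fell to 0.784 times its level (adjusted p = 0.024). Of 19 genes of beta-catenin turnover and its nuclear partners, Tle3, a Groucho corepressor, rose 1.64-fold (adjusted p = 0.00167) and Tcf7l2, a DNA-binding partner of beta-catenin, 1.34-fold (adjusted p = 0.0399). The corepressor Tle1 fell to 0.573 times its level (adjusted p = 0.00018). Of 3 other classical cadherins tested, Cdh18 fell from 8.97 ± 0.132 to 3.71 ± 0.75 CPM (log2 fold change -1.28 ± 0.241, adjusted p = 0.00872). Of 6 other catenins tested, edgeR called 0, DESeq2 called 0, and 1 was lower at an unadjusted p under 0.05 (18.5% of all tested genes were under it in either direction).

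**Figure D2:**
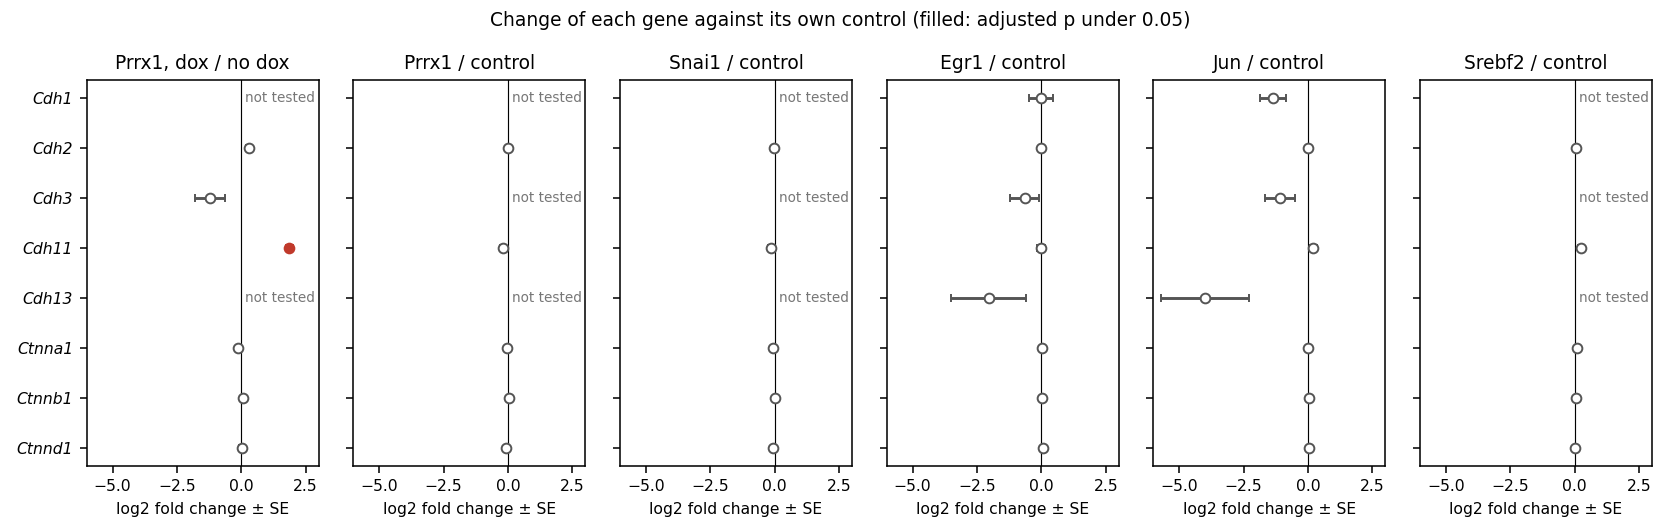
Log2 fold change of each gene against its own control in the 6 comparisons, with the standard error of the fit as a bar (often shorter than the symbol); filled symbols have an adjusted p under 0.05, and genes too low to test are marked. Cdh11 with doxycycline, at 1.87, is the single filled symbol, and the 3 catenins lie between -0.11 and 0.09 in each panel.

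Transfection of Prrx1 raised Prrx1 further than doxycycline did, from 580 ± 93.2 to 16000 ± 2700 CPM, and Cdh11 did not rise. It stood at 13.3, 13.2 and 12.1 CPM with Prrx1 and at 14.1, 15.5 and 14.7 CPM with the control plasmid. Every Prrx1 library lay below every control, and the difference was small (log2 fold change -0.20 ± 0.098, adjusted p = 0.341). By edgeR, 0 of 5 members tested were called, where 2.98% of all 13108 tested genes were called. The count was also 0 at an unadjusted p under 0.05 (17.2% of tested genes), and so was that of DESeq2. Groups did not overlap for 1 member, Cdh11, and for 19.7% of tested genes.

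The difference between both ways of raising Prrx1 was tested directly for each gene, as the effect of doxycycline minus the effect of transfection. For Cdh11 it was 2.05 ± 0.166 on the log2 scale (adjusted p = 1.63e-06), in the direction of a larger response to doxycycline. For the 5 other members tested it ranged from -1.37 ± 0.834 for Cdh3 (adjusted p = 0.450) to 0.27 ± 0.153 for Cdh2 (adjusted p = 0.399), and none passed. So 1 of 6 members was called, against 4.0% of 15216 tested genes. The experiments also differ in how Prrx1 was delivered, in exposure to doxycycline, in sequencing depth and in their controls, and these cannot be told apart. The repressor gene Snai2, higher with doxycycline, fell to 0.705 times its control level with transfected Prrx1 (12.7 ± 0.701 against 17.9 ± 3.09 CPM, adjusted p = 0.0498). It was the 1 called gene among 54 tested of the 74 listed genes, a share near the 2.98% of all tested genes. At an unadjusted p under 0.05, 1 listed gene was higher and 12 were lower, where 17.2% of all tested genes were under it, and DESeq2 called 2.

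Under Prrx1 transfection the remaining members lay close to their controls. Cdh2 was at 206, 184 and 216 CPM against 181, 210 and 215 CPM, so the groups overlapped (log2 fold change 0.00 ± 0.074, adjusted p = 0.998). Ctnna1 was at 558 ± 8.24 CPM against 577.5 ± 47.9, Ctnnb1 at 607 ± 49.6 against 585 ± 26.9, and Ctnnd1 at 232 ± 7.24 against 247 ± 26.6 CPM, with adjusted p of 0.741, 0.748 and 0.575. The first control library of this experiment was the lowest of its group for these 3 catenins and for Cdh2, at 522, 557, 217 and 181 CPM. Without it Ctnnd1 was called lower with Prrx1 (log2 fold change -0.17 ± 0.0469, adjusted p = 0.0132) and with Snai1 (-0.14 ± 0.0469, adjusted p = 0.0326). In those fits 2641 and 3058 of all 13398 tested genes were called, against 391 and 212 of 13108 with that control, so 1 of 5 members is near the share of all genes. Cdh1 held 1 to 4 counts in the Prrx1 libraries and 0 or 1 in the controls, Cdh3 held 4 to 9 counts in these 6 libraries and Cdh13 held 0 to 4, which is too few to test.

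With Snai1, a repressor of Cdh1 that was 123-fold higher (adjusted p = 2.78e-12), none of the members passed the test. Cdh1 was at the limit of detection before any repression: it held 0, 2 and 0 counts with Snai1 and 1, 0 and 1 with the control plasmid, and 3 counts correspond to 0.145 to 0.168 CPM in these libraries. A fall of Cdh1 was therefore not detectable at this depth. Cdh2 was at 199, 198 and 201 CPM with Snai1, inside the range of its controls (log2 fold change -0.01 ± 0.074, adjusted p = 0.980). Cdh11 was at 12.4, 14.4 and 12.8 CPM, below its controls on average but overlapping them (-0.15 ± 0.0979, adjusted p = 0.488). The catenins differed by at most 0.06 on the log2 scale in size. By edgeR, 0 of 5 members were called where 1.62% of tested genes were, 0 had an unadjusted p under 0.05 (16.3% of tested genes), and DESeq2 called 0. Groups overlapped for each of the 5 members tested, and did not overlap for 21.0% of tested genes. Snai1 and Prrx1 transfections, which share their controls, were also compared directly, and 0 of 5 members differed (0.252% of tested genes did), with 0 below 0.05 before adjustment (5.47% of tested genes) and 0 called with DESeq2. Of the listed junction and beta-catenin genes, Snai1 itself was the 1 called of 54, with 4 higher and 4 lower before adjustment and 2 called with DESeq2.

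All 8 members passed the filter on low counts in the Jun and Egr1 experiment, which was also the deepest. For Cdh13 this rested in part on 1 control library, as described below. E-cadherin, Cdh1 (chromosome 8, 106603351 to 106670246, plus strand), was detected in each of the 9 libraries of that experiment. It was at 1.60, 1.58 and 0.92 CPM in the controls, at 1.14, 1.82 and 1.10 CPM with Egr1, and at 0.79, 0.16 and 0.60 CPM with Jun. The Jun libraries lay below all others of the experiment, with 26, 5 and 15 counts against 29 to 67. The log2 fold change with Jun was -1.37 ± 0.498 and did not pass the test (edgeR, adjusted p = 0.211). Against Egr1 it was also -1.37, ± 0.497 (adjusted p = 0.320). In the other experiments Cdh1 held 0 to 4 counts, and the 3 Srebf2 controls held 0, which allows up to 0.161 CPM in a library. Scaled to the library total, its mean was 1.37 CPM in the Jun and Egr1 controls and 0.0336 CPM in the Prrx1 and Snai1 controls. Epithelial markers followed a like order in part: the summed level of 12 markers was 12.8 to 15.3 CPM in the controls and 3.45 to 7.54 CPM with Jun. Their part in the Cdh1 values was not tested. The third Egr1 library, with 106 CPM of Krt18 against 2.16 and 2.07 CPM, had no higher Cdh1 than the others. Without it the log2 fold change of Cdh1 was 0.13 ± 0.54 with Egr1 and -1.37 ± 0.508 with Jun, and without the second control it was 0.09 ± 0.517 and -1.27 ± 0.531, none of them called. Over all genes, leaving out that Egr1 library moved the calls from 47 to 106 with Egr1 and from 140 to 327 with Jun.

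T-cadherin, Cdh13 (chromosome 8, 118283733 to 119324921, plus strand), was high in 1 library of this experiment. The controls held 9, 114 and 2 counts (0.26, 4.18 and 0.06 CPM), the Egr1 libraries 14, 9 and 12, and the Jun libraries 8, 0 and 0. Counts reached 10, the minimum set in the filter, in the control with 114 and in the Egr1 libraries with 14 and 12. Passing the filter thus rested in part on that control, and not on depth alone. The log2 fold changes of Cdh13 were -2.05 ± 1.47 with Egr1 (adjusted p = 0.673) and -4.00 ± 1.72 with Jun (adjusted p = 0.327). Without the second control they were 1.08 and -0.87. That control is the one with neural markers: Map2 was at 55.6 CPM there and at 0.20 and 0.13 CPM in the other controls, and Syt1 at 12.1 against 0.09 and 0.22 CPM. The same library was highest of its group for Cdh3, at 1.43 against 0.37 and 0.38 CPM, and lowest for Cdh11, at 6.46 against 10.8 and 8.77 CPM. Without it the log2 fold change of Cdh3 moved from -1.09 ± 0.585 to -0.18 with Jun and from -0.65 ± 0.568 to 0.25 with Egr1. The part of the cells behind these markers in the cadherin values was not tested.

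The abundant members did not pass the test with Egr1 or Jun. Cdh2 was at 237, 235 and 233 CPM in the controls. It was at 235, 230 and 232 CPM with Egr1 and at 242, 237 and 220 CPM with Jun, all overlapping in CPM. In TPM both groups lay above the controls, at 77.7 to 79.3 with Egr1 and 73.1 to 81.6 with Jun against 69.3 to 71.6. The ratio of group means of Cdh2 in TPM was 1.11 with either factor. For the catenins it was 1.13 to 1.17 with Egr1 and 1.12 to 1.19 with Jun. TPM values were not tested. Cdh11 was at 8.60, 8.82 and 8.29 CPM with Egr1 and at 10.6, 8.46 and 10.3 CPM with Jun, inside the control range of 6.46 to 10.8 CPM. Without the second control its log2 fold change was -0.19 ± 0.128 with Egr1 and 0.01 ± 0.129 with Jun, and without the third Egr1 library 0.01 ± 0.189 and 0.19 ± 0.17. The log2 fold changes of the 3 catenins were 0.00 to 0.06, with SEs of 0.0383 to 0.0425. Ctnnd1 with Egr1 (302, 295 and 308 CPM) lay just above its controls (295, 295 and 282 CPM) without passing (adjusted p = 0.608). By edgeR, 0 of 8 members were called with Egr1 (0.325% of 14481 tested genes) and 0 of 8 with Jun (0.967%). At an unadjusted p under 0.05 there were 0 with Egr1 (10.3% of tested genes) and 1, Cdh1, with Jun (15.3%), and DESeq2 called 0 in both. Groups did not overlap for 1 member with Egr1 (16.2% of tested genes) and 1 with Jun (23.4%). Jun against Egr1, which share their controls, gave 0 of 8 called (0.449% of tested genes), 1 below 0.05 before adjustment (Cdh1, against 11.9% of tested genes) and 0 called with DESeq2. Of 59 listed junction and beta-catenin genes tested, 0 were called with either factor. At an unadjusted p under 0.05, 9 were higher and 2 lower with Egr1, and 6 were higher and 7 lower with Jun. DESeq2 called 2 of the listed genes with Egr1 and 4 with Jun.

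With Srebf2, 17.2% of 12728 tested genes were called and none of the members. Cdh11 had the smallest p of them, at 14.9, 15.5 and 15.8 CPM with Srebf2 against 12.8, 13.1 and 13.9 CPM with the control plasmid. All Srebf2 libraries lay above all controls, by 1.17-fold (log2 fold change 0.23 ± 0.0917), and edgeR's adjusted p was 0.0900. By edgeR, 0 of 5 members tested were called, 1 had an unadjusted p under 0.05 (31% of tested genes), and DESeq2 called 0. Cdh2 was at 176, 174 and 191 CPM against 176, 170 and 176 CPM (0.07 ± 0.0514, adjusted p = 0.360). Ctnna1 was at 596, 638 and 626 CPM against 590, 588 and 592 CPM, groups that did not overlap (0.09 ± 0.0495, adjusted p = 0.216). Ctnnb1 (581 ± 5.19 against 564.5 ± 29.7 CPM) and Ctnnd1 (266.5 ± 1.06 against 267 ± 9.83 CPM) overlapped their controls. Groups did not overlap for 2 of 5 members, Cdh11 and Ctnna1, against 35.3% of tested genes.

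Of 53 listed junction and beta-catenin genes tested, 8 were called higher and 6 lower with Srebf2, where 8.4% and 8.84% of all tested genes were. Each changed by a small amount. Among junction partners, the protease Adam10 (1.12-fold, adjusted p = 0.0343), which cuts cadherins, and the small GTPase Rap1a (1.15-fold, adjusted p = 0.0251) rose. Nectin1 (0.846-fold, adjusted p = 0.00884) and Wtip, a LIM protein of the Ajuba family (0.751-fold, adjusted p = 0.000637), fell. Of beta-catenin genes, Tcf7l1 rose (1.19-fold, adjusted p = 0.00968), while Axin1 (0.846-fold, adjusted p = 0.00572) and Apc2 (0.769-fold, adjusted p = 0.0452) of the destruction complex, its kinase Gsk3a (0.877-fold, adjusted p = 0.0300) and the nuclear cofactor Pygo2 (0.867-fold, adjusted p = 0.0179) fell. Of 8 repressors of cadherin genes tested, Snai2 (1.33-fold), Zeb1 (1.15-fold), Zeb2 (1.17-fold) and Tcf4 (1.12-fold) rose, with adjusted p of 0.00634 to 0.0495. Rap1a and Gsk3a share 31-base words with other genes (86.9% and 69.7% are theirs alone), so their values are uncertain.

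**Figure D3:**
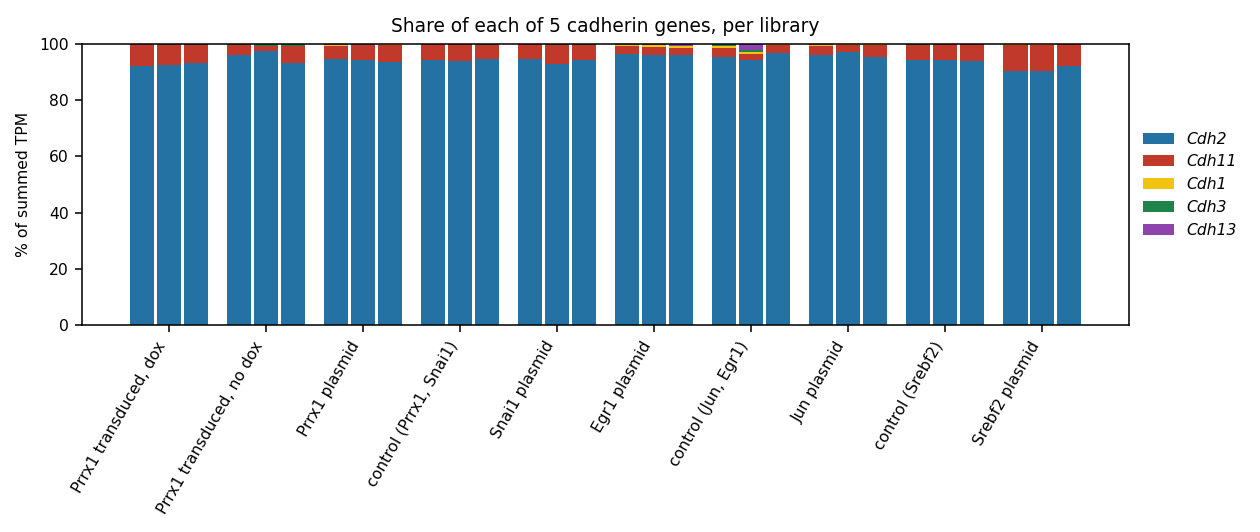
Share of each of 5 cadherin genes in their summed TPM, 1 bar per library and 3 libraries per group, on a linear axis from 0 to 100%. Cdh2 takes at least 90.4% in each bar, Cdh11 most of the rest, and Cdh13 is visible in the second control of the Jun and Egr1 experiment (2.31%).

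The share of Cdh11 in the cadherin total differed between counts and TPM. As a share of summed TPM, Cdh11 was 7.02% ± 0.439 with doxycycline and 3.81% ± 1.96 without (SD, n = 3). As a share of summed counts it was 8.79% ± 1.16 and 3.04% ± 0.198. Beside this stands Cdh11-203, a short transcript model, which weighs more once length is allowed for. It is 599 bases long and annotated as a retained intron, without coding sequence. It was estimated at 1.30, 0 and 5.20 TPM in the libraries without doxycycline and at 0.40, 1.04 and 2.55 TPM in those with it. The main transcript, Cdh11-201, was at 10.3, 9.59 and 9.37 TPM with doxycycline and 2.54, 2.40 and 2.10 TPM without, again with no overlap. The ratio of group means for the whole gene was 3.73 in CPM and 2.44 in TPM. With Srebf2, Cdh11-203 was estimated at 2.40, 2.27 and 1.32 TPM and listed at 0 in the 3 controls. There the ratio of group means of the gene was 1.16 in CPM and 1.78 in TPM. The group with the lowest share of Cdh2 was Srebf2 transfection in summed TPM. In summed counts it was the doxycycline group, at 90.9% against 91.9% with Srebf2.

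Across experiments, Ctnnb1 gave different pictures in counts and in TPM. Ctnnb1 was at 257 to 293 CPM in the 6 transduction libraries and at 542 to 794 CPM in the 24 transfection libraries, with no overlap, whereas its TPM, at 216 to 273 and 243 to 352, overlapped. The transcripts behind these totals differed. Ctnnb1-201, the full-length protein-coding transcript, was the main one in the transfection libraries, at 74.4 to 92.3% of the TPM of the gene, and took at most 26.7% in the transduction libraries. In its place stood models annotated as retained intron (Ctnnb1-215) or as targets of nonsense-mediated decay (Ctnnb1-213 and Ctnnb1-208). Ctnnb1-215 was at 48.8 to 63.8 TPM in the transduction libraries and at 2.26 to 46.5 TPM in the transfection libraries. Ctnnb1-213 was at 48.2 to 103 TPM in the transduction libraries and listed at 0 in the 24 others, and Ctnnb1-208 at 10.6 to 83.9 TPM against at most 1.81 TPM. The stretches below are from the GENCODE M21 transcripts on GRCm38 (plus strand, coding sequence of Ctnnb1-201). They show a place where reads of Ctnnb1-201 and Ctnnb1-208 can be told apart. Capitals mark bases at genome positions that the other transcript does not include. Across the end of exon 10 and the start of exon 11 (chr9:120955948-120957134) the stretch printed is 53 bases long in Ctnnb1-201 and 54 in Ctnnb1-208.
Ctnnb1-201: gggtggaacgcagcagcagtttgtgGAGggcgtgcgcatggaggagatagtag
Ctnnb1-208: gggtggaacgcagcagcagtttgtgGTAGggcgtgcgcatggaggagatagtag

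Little sequence separates these models from other transcripts. Of the 31-base words of Ctnnb1-213, 30 of 662 were found in no other transcript, of those of Ctnnb1-208, 27 of 3518, and of those of Ctnnb1-215, 92 of 1262. The estimates were also unsteady within a group: without doxycycline Ctnnb1-208 was at 10.6, 83.9 and 43.0 TPM and Ctnnb1-201 at 57.6, 0.00 and 32.6 TPM in the same libraries. Single transcripts of Ctnna1, Ctnnd1 and Cdh2 also differed between both sets of libraries. Ctnna1-208 was at 53.1 to 143 TPM in the transduction libraries and at most 2.11 TPM in the others, Ctnnd1-230 at 60.3 to 101 against at most 10.3 TPM, and Cdh2-202 at 73.6 to 142 against 18.2 to 38.6 TPM. Of the 31-base words of Ctnnd1-230, 0 of 780 were found in no other transcript, so its level is uncertain. Cdh2-201 did not follow, at 26.4 to 45.8 TPM against 28.0 to 46.6 TPM. Over all protein-coding genes, transcripts annotated as protein-coding took 72.7 to 78.0% of the TPM in the transduction libraries and 86.3 to 89.1% in the transfection libraries. The gap between the length and the effective length of a transcript, a mark of fragment length, was 161 to 188 bases against 221 to 286. The part of these library differences in the transcript estimates was not tested, and experiment and library properties cannot be told apart, so no level is tested across experiments.

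**Figure D4:**
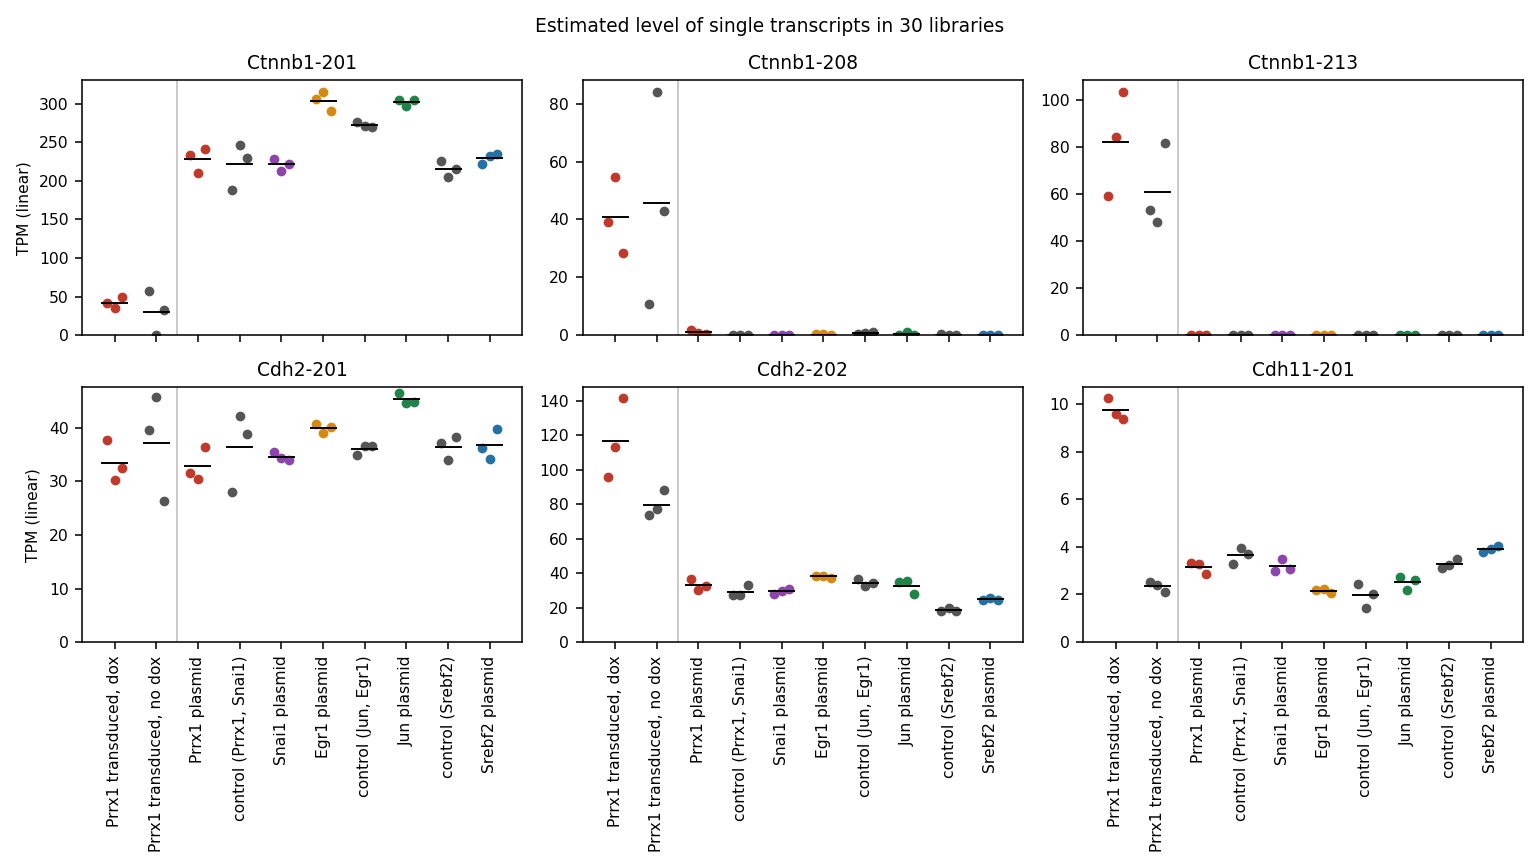
Estimated level (TPM, linear axis) of 6 single transcripts of Ctnnb1, Cdh2 and Cdh11 in the 30 libraries: points are libraries, short bars are group means (n = 3), and the grey line separates the transduction experiment from the transfection experiments. Ctnnb1-201 is at 57.6 TPM or less left of the line and at 189 TPM or more right of it, Ctnnb1-213 is present left of the line and listed at 0 right of it, and Cdh11-201 is at 9.37 to 10.3 TPM in the doxycycline libraries alone.

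Ordered by group mean, Cdh11 ran from 38.3 ± 0.955 CPM with doxycycline down to 8.57 ± 0.267 CPM with Egr1. The doxycycline group stood clear of the next, Srebf2 transfection at 15.4 ± 0.504 CPM. Of the groups below it, several neighbours in the order overlapped, such as the Srebf2 controls (13.3 CPM), Snai1 (13.2 CPM) and Prrx1 transfection (12.9 CPM). Cdh2 ran from 401 ± 54.9 CPM with doxycycline and 326 ± 17.4 CPM without it to 174 ± 3.77 CPM in the Srebf2 controls, and its groups fell in blocks by experiment. Ctnna1 ran from 554 ± 4.19 CPM with Snai1 to 650 ± 39.8 CPM without doxycycline, with overlap between most neighbours. Ctnnd1 ran from 200 ± 37.9 CPM without doxycycline to 302 ± 6.51 CPM with Egr1.

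Over the 10 group means, the gene whose level was most like that of Cdh11, among 10242 genes, was Gli2, a transcription factor of the Hedgehog pathway (Pearson r = 0.957), followed by Esyt1 (0.947) and Esco2 (0.940). For Cdh2 they were Afdn, which encodes the junction protein afadin (0.994), Hacd3 (0.989) and Cldnd1 (0.986). For Ctnna1 they were Golga1 (0.953), Eya4 (0.951) and Atf2 (0.948), for Ctnnb1 Ndst2 (0.997), Pcdh7 (0.997) and Angptl2 (0.996), and for Ctnnd1 Pacs2 (0.998), Ralgds (0.990) and Mettl27 (0.988). These values are a description of 10 points that share experiments, controls and depth, and for Cdh11 1 point, the doxycycline group, lies far from the others. Levels of Pcdh7 are uncertain, since 79.3% of its 31-base words are its own.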

How the data were processed

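Bulk mRNA sequencing of 30 libraries of NIH3T3-CG cells was analysed from the deposited transcript tables. The authors quantified reads with kallisto 0.43.0 on mm10, per the submitters' processing notes; annotation release, strand and read layout are not given in the sources used here. The deposited tables give estimated counts and TPM for 118491 targets, and per the file headers also lengths and effective lengths. Of these, 116816 matched GENCODE M21 (GRCm38) transcripts, 2 were added sequences, and 1673 were unmatched (0.605 to 0.694% of counts) and left out. For each of 36047 genes, the deposited estimated counts of its transcripts were added and then rounded, and TPM was added without change.

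Genes were tested with the quasi-likelihood F test of edgeR 4.0.16 under R 4.3.3 (robust, TMM, filterByExpr at min.count 10 and min.total.count 15), 1 fit per experiment and 1 for the difference between both Prrx1 comparisons, with a call at a Benjamini-Hochberg adjusted p under 0.05 over all tested genes, two-sided. The code was tested on simulated data. The standard error was derived from the F statistic, the prior count for log2 fold changes was 0.125, and limits at 0 counts use 3 counts and cover counting error only. CPM has no TMM scaling.

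Alternatives were DESeq2 1.42.0, other size factors, no filter or 5 CPM in 3 libraries, all 30 libraries in 1 fit, a replicate term, and each library left out. Adding Gm28635 counts to Ctnnd1 was chosen after seeing the data. No replicate files were identical, and replicates differed beyond sampling noise (lowest chi-square per degree of freedom 3.41).

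The 8 genes and the 5 lists of junction and beta-catenin genes were chosen with earlier results of these data known. Named genes are the 8 members, the called genes of the lists (at most 4 each way per list and comparison), the delivered factors, and for each member tested in all experiments the 3 protein-coding genes of at least 5 CPM on average with the highest Pearson correlation of log2(CPM + 1) over 10 group means. Sequences are from GENCODE M21 transcripts. The values of 1 listed gene and 1 transcript stretch are not reported here.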

Additional observations from a re-analysis of the deposited data

Results flagged for a closer look

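The response of Cdh11, the mesenchymal cadherin-11, differed between both ways of raising Prrx1. The effect of doxycycline minus the effect of transfection was 2.05 ± 0.166 on the log2 scale (edgeR quasi-likelihood test, adjusted p = 1.63e-06), from a rise of 1.87 ± 0.131 with doxycycline and a difference of -0.20 ± 0.098 with transfection. All 3 doxycycline libraries lay above their controls, and all 3 transfected libraries lay below theirs. Leaving out each library in turn gave 2.0 to 2.16, and the call held each time. The drug was given in the transduction experiment only, so its effect and that of induced Prrx1 cannot be told apart.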

How the results depend on the processing

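The rise of Cdh11 with doxycycline (1.81 to 1.97 on the log2 scale with 1 library left out at a time) and its difference from transfection (2.0 to 2.16) kept their call in each alternative run. Of 626 alternative values of member changes, 578 kept direction and side of the threshold and 44 turned sign, 0 of them called in either fit. The members called with doxycycline were 2 in place of 1 without the filter on low counts and in the fit of all 30 libraries, where Cdh2 joined (0.27 and 0.25). With Prrx1 and with Snai1 they were 0 to 1 with 1 library left out, the 1 being Ctnnd1 without the first control. The counts with Egr1, Jun and Srebf2 stayed at 0 in the alternatives run.

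Counts of all called genes, against which the members are read, moved more. DESeq2 called 647 with Prrx1 (391 by edgeR), 532 with Snai1 (212), 415 with Egr1 (47) and 857 with Jun (140). Without the filter there were 1326 with doxycycline (844), 615 with Prrx1 and 421 with Snai1, and the filter at 5 CPM gave 244 with Jun. A fit of all 30 libraries gave 2705 with doxycycline, 101 with Egr1, 58 with Jun and 569 with Srebf2 (2194). With 1 library left out the counts were 334 to 1250 with doxycycline, 103 to 2641 with Prrx1, 46 to 3058 with Snai1, 9 to 106 with Egr1, 27 to 327 with Jun and 968 to 2317 with Srebf2. Leaving out the first Prrx1 and Snai1 control gave 2641 and 3058.

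Same-numbered replicates did not deviate together (correlations -0.17 to 0.13, no comparison with every pair above 0.1, and no comparison in which each library correlated best with its own number). A replicate block gave 20 called genes with Egr1 and 73 with Jun, changed no other count of calls by more than 1.5 times and no call of a member, and turned the log2 fold changes of Cdh1 and Cdh11 with Egr1 to 0.03 and 0.01.

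Some signs turned, those of Cdh3 and Cdh13 with Egr1 from values away from 0 (-0.65 and -2.05). Cdh2 with Prrx1 was -0.005 with DESeq2, -0.00067 with other size factors, -0.02 without the filter and -0.00029 in the fit of all libraries. Ctnnd1 with doxycycline was -0.02 in that fit and -0.13 with Gm28635 added. The difference between both Prrx1 comparisons was -0.0027 for Ctnnb1 in that fit and -0.04 for Ctnnd1 with Gm28635 added. With 1 library left out, ranges that crossed 0 were, for Egr1, Cdh1 -0.29 to 0.14, Cdh2 -0.02 to 0.0045, Cdh3 -0.96 to 0.25, Cdh11 -0.19 to 0.18, Cdh13 -2.61 to 1.08 and Ctnnb1 -0.02 to 0.04. For Jun they were Cdh2 -0.01 to 0.05 and Ctnna1 -0.02 to 0.03. For Prrx1 they were Cdh2 -0.07 to 0.07 and Ctnnb1 -0.001 to 0.11, and for Snai1 Cdh2 -0.07 to 0.04 and Ctnnb1 -0.01 to 0.05. Ctnnd1 ran from -0.13 to 0.13 with doxycycline and from -0.01 to 0.05 with Srebf2. The differences between both Prrx1 comparisons ran from -0.12 to 0.02 for Ctnna1, -0.04 to 0.09 for Ctnnb1 and -0.05 to 0.21 for Ctnnd1. The cause was not tested in these cases. In TPM, 17 of 30 ratios of group means moved by more than the spread between replicates. With Egr1 and with Jun these were the ratios of Cdh2 and the catenins, and with Srebf2 those of Cdh2, Cdh11, Ctnna1 and Ctnnd1. Low counts limit the results for Cdh1, Cdh3 and Cdh13, which were mostly under the filter.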
